A study of Mus musculus and Homo sapiens with 180 samples.

Results

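HuDEP-2 cells, a human erythroid progenitor line derived from umbilical cord blood and immortalised with a viral oncogene construct that doxycycline keeps on, were exposed to the DOT1L inhibitor SGC0946 at 5 μM or to the vehicle DMSO for 168 h. Gene expression was measured by 3′ RNA-seq, which reads transcripts near their poly(A) tail. The experiment comprised 4 DMSO libraries and 4 SGC0946 libraries, 8 of the 180 samples of the series, chosen by the line, treatment and time in their labels. The series' design text speaks of 3 replicates per condition, whereas 4 per group are labelled here, and all 4 were used. All 8 are labelled as HUDEP-2 control cells, cell type Erytheroid, from blood, and none carries an edited gene or a second drug. The samples are listed as mouse, whereas the counts are of human genes and the line is human. The comparison belongs to the question of whether DOT1L and Polycomb also oppose each other in cells with wild-type MLL1. The labels do not say whether replicates came from separate cultures, so p-values measure the spread between these samples, which may be technical.

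DOT1L is the enzyme that methylates lysine 79 of histone H3 along the bodies of transcribed genes, and SGC0946 occupies the site where its methyl donor S-adenosylmethionine binds. The variant Polycomb complex PRC1.1 places ubiquitin on histone H2A at CpG-rich promoters. Erythroid progenitors are governed by GATA1, TAL1 and KLF1, make haem and globin in large amounts, and in adult cells keep the foetal γ-globin genes HBG1 and HBG2 low through repressors that include BCL11A and ZBTB7A.

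To show the sequences in front of genes at both ends of the response, the 250 bases before the transcription start are given for 3 of the most raised genes, ITLN1, PTGES and TNNT1, and for 3 of the most lowered, IGF2BP2, FAM241A and CDKN2C. They read 5′ to 3′ on the strand of the gene in GRCh38, with the start of the canonical transcript in GENCODE 44. For CDKN2C this start lies inside the annotated gene, and 3′ reads do not show which start was used. Capitals mark each CG dinucleotide, the pair that is rare in the genome and dense in CpG islands.
ITLN1 (chr1:160885181-160885430, minus strand): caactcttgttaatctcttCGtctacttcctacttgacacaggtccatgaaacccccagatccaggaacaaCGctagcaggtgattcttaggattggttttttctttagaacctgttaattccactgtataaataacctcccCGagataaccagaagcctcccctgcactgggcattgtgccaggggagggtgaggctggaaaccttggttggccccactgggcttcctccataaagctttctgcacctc
PTGES (chr9:129753043-129753292, minus strand): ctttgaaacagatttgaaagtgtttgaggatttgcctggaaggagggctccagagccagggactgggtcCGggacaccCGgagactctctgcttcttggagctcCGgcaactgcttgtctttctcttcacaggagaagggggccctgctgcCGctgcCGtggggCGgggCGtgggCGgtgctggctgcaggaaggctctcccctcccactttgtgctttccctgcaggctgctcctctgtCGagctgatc
TNNT1 (chr19:55149207-55149456, minus strand): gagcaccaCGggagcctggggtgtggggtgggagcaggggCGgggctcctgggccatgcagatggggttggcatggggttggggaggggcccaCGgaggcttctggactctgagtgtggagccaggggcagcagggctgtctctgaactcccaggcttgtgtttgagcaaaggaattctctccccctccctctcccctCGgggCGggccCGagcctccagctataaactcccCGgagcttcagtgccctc
IGF2BP2 (chr3:185825043-185825292, minus strand): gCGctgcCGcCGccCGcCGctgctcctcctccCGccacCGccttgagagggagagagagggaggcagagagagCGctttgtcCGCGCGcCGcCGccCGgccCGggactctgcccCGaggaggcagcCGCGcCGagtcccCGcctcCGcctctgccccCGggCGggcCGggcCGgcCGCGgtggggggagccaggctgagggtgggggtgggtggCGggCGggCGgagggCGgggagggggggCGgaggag
FAM241A (chr4:112145204-112145453, plus strand): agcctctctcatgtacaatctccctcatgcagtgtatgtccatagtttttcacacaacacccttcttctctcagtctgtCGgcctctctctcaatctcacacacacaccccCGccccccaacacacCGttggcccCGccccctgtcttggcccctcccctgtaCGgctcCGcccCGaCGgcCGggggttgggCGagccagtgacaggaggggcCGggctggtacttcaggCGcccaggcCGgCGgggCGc
CDKN2C (chr1:50969995-50970244, plus strand): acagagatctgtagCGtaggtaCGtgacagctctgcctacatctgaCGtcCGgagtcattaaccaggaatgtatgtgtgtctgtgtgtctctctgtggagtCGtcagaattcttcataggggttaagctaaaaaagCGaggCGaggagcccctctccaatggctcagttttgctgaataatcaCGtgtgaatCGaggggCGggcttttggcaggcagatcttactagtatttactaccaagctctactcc
The first 3 windows hold 3, 9 and 7 CG pairs and the last 3 hold 32, 15 and 10. They were picked after values had been seen and do not stand for all such genes, since PLK2, EMP2 and NMU, also among the 12 largest rises, have windows with 37, 27 and 25.

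Reads on genes numbered 5216015 to 8616517 in the DMSO libraries and 7846147 to 9499861 in the SGC0946 libraries. Levels are given as CPM, read counts scaled to a common library total after correction for composition by the TMM method. Each level is thus relative to the other RNAs of its library, and fewer cells of a type and less RNA per cell cannot be told apart. Groups separated along the first principal component, which held 38.1% of the variance. DMSO replicate 1, the shallowest library, stood apart from the other DMSO libraries on the second (14.7%), where it lay at 36.9 against −20.7 to −7.6. The erythroid label matched its markers, since all 12 fixed erythroid markers passed the filter and summed to 22600 to 29100 CPM under DMSO and 20400 to 23100 CPM under SGC0946. Lymphoid markers summed to at most 0.16 CPM, with CD3E, MS4A1, IL7R, PAX5 and LCK at 0 in all 8 libraries, and the platelet genes PF4, PPBP and VWF and the neutrophil gene ELANE were at 0 as well. Tryptase genes of mast cells and basophils, TPSB2 and TPSAB1, were present in every library, and the 8 markers of mast cells, basophils and eosinophils summed to 749 to 855 CPM under DMSO and 833 to 906 CPM under SGC0946. Some genes that most cells use, such as LDHA and RING1, and HLA-B and HLA-C are listed at 0 in all libraries, so a count of 0 in these tables does not show that a gene was silent.

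SGC0946 raised 511 genes and lowered 313 of the 10099 genes tested by edgeR, at an adjusted p under 0.05. These were 8.16% of the genes tested, 5.06% higher and 3.1% lower. The directions differed in size and in the level of the genes involved. Raised genes had a median log2 fold change of 1.19 and a median of 7.55 CPM in the DMSO libraries, whereas lowered genes had a median log2 fold change of −0.39 and a median of 124 CPM. Of the raised genes 282 (55.2%) changed by more than 2-fold and 147 by more than 4-fold, against 13 (4.15%) and 0 of the lowered genes. The 4 SGC0946 values lay above all 4 DMSO values for 479 of the 511 raised genes and below them for 269 of the 313 lowered genes, where 7.72% and 5.94% of all genes tested were separated in these directions. Of the raised genes 146 passed the filter of 2 CPM only through the SGC0946 libraries, and these had to be higher there.

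With scaling by library size alone, 603 genes (76.4% of those called, against 62% as reported) were higher and 186 lower. Without DMSO replicate 1, 675 genes were called, 451 higher and 224 lower. Leaving out SGC0946 replicate 1, 3 or 4 gave 193, 174 and 183 lowered genes, and at an adjusted p under 0.1 with a log2 change of at least 0.5, the limits of the study's methods, 519 genes were higher and 116 lower.

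**Figure D1:**
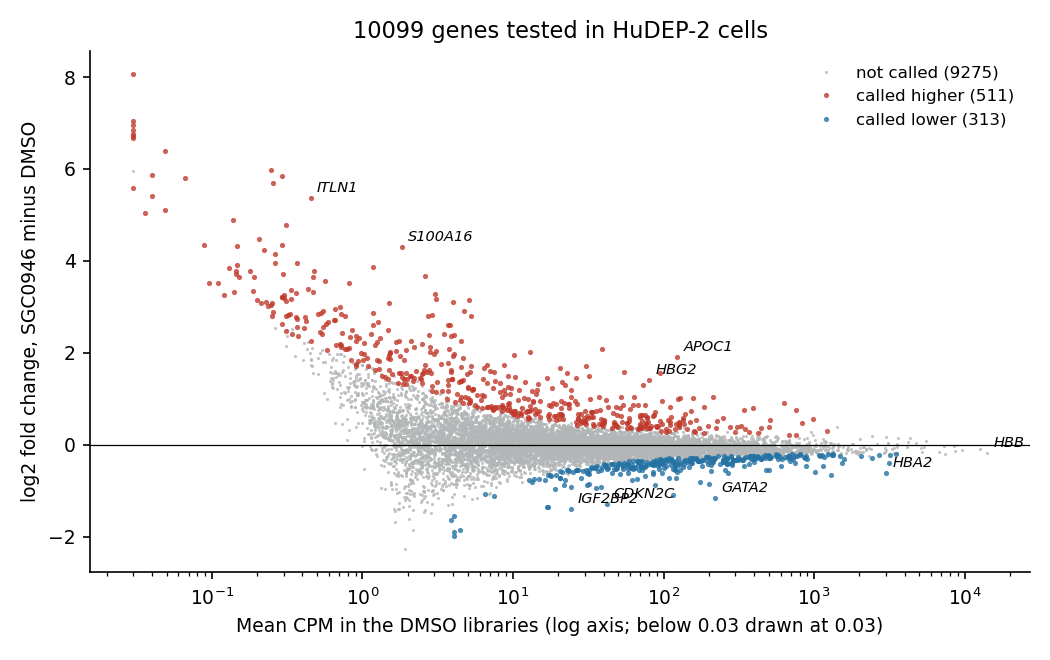
Mean CPM in the 4 DMSO libraries (x, log axis) against the log2 fold change under SGC0946 (y) for the 10099 genes tested, with raised genes in red, lowered genes in blue and others in grey. The 511 raised genes spread upwards at the low end of expression, and the 313 lowered genes form a narrow band of small changes at the high end.

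Among genes that averaged under 2 CPM in the DMSO libraries, 155 of 825 (18.8%) were called higher and 0 lower. Of these 825 genes, 650 did not pass the filter on the DMSO libraries alone and were tested through their SGC0946 levels, so the filter itself favours higher calls there. At 100 CPM and above, 55 of 1966 (2.8%) were higher and 180 (9.16%) lower, with a median log2 fold change of −0.32 among the lowered. Small changes in a low gene are not detectable at this depth, so the share called at a level is not the share of genes that changed.

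More genes were detected under SGC0946. Reduced to 5000000 reads, a DMSO library was expected to show 12396 ± 61.3 genes with a read (SD, n = 4) and an SGC0946 library 13309 ± 45.3, a difference of 914. The groups did not overlap, and the exact two-sided permutation p was 0.0286, the smallest that 4 against 4 libraries allow. The same count was higher by 316 in K562 leukaemia cells given the same dose and time (exact permutation p = 0.0286) and by 555 in a second HuDEP-2 experiment, where 3 against 3 libraries cannot give an exact permutation p under 0.1.

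Taken over all levels, raised genes had fewer CG pairs before their start than the genes tested as a whole. Windows of 250 bases were read for 9807 of the 10099 genes (97.1%). The median number of CG pairs was 22 over all of them, 17 over the raised genes and 24 over the lowered genes. Windows with 5 CG pairs or fewer made up 4.89% of all, 21.7% of those of raised genes (109 of 503) and 3.24% of those of lowered genes. Counting only genes that passed the filter on the DMSO libraries alone, the share was 17.7% of the raised against 4.0% of all. By level under DMSO it was 27.2% against 9.04% below 10 CPM, 14.9% against 3.1% at 10 to 100 CPM and 15.1% (8 of 53 genes) against 2.01% above. The median did not differ the same way at every level. It was 14.5 against 22 below 10 CPM, 18 against 22.5 at 10 to 100 CPM and 24 against 22 above. Read the other way, 22.7% of genes with 0 to 5 CG pairs were raised, 11.3% with 6 to 10, and 3.89%, 3.78% and 3.48% with 11 to 20, 21 to 30 and 31 or more, while the lowered share was 2.08%, 2.92%, 2.55%, 3.39% and 3.98% in the same bins.

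Short motifs were counted in the same windows on both strands. The GATA motif, searched as AGATAA or TGATAA, was present in 12.3% of windows of raised genes, 6.15% of those of lowered genes and 6.41% of all. For genes that passed the filter on the DMSO libraries alone the share was 10.2% of the raised against 6.1% of all, and by level under DMSO it was 15.2% against 6.9% below 10 CPM, 8.05% against 6.29% at 10 to 100 CPM and 11.3% (6 of 53 genes) against 5.86% above. The KLF motif, searched as CCACACCC, was present in 4.17%, 1.94% and 2.5%, and the AP-1 motif TGANTCA in 4.57%, 2.59% and 3.04%. The AP-1 share of raised genes was not above that of all genes at every level under DMSO. It was 5.8% against 3.25% below 10 CPM, 2.3% against 2.79% at 10 to 100 CPM and 5.66% against 3.24% above. These shares describe letters in a window and were not tested.

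**Figure D2:**
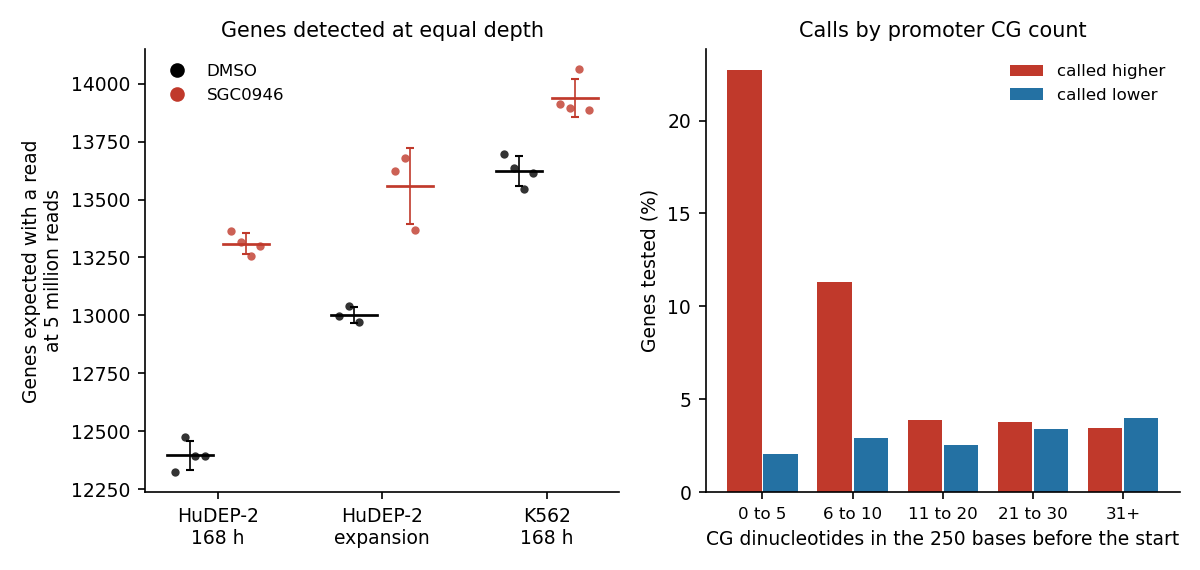
Left, genes expected with at least 1 read when each library is reduced to 5000000 reads, for HuDEP-2 cells at 168 h, the second HuDEP-2 experiment (HuDEP-2 expansion) and K562 cells, with 1 point a library, bars for the mean and SD, DMSO in black and SGC0946 in red. Right, the percentage of genes tested that were called higher or lower, by the number of CG pairs in the 250 bases before the start; 22.7% of genes with 0 to 5 pairs were raised and 3.48% of those with 31 or more.

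Globin genes moved in opposite directions by type. The list has 10 genes, of which 9 were tested and 8 called, 4 higher and 4 lower. The foetal β-like genes HBG1 and HBG2 rose, and so did HBD, which encodes the minor adult δ-globin, and the embryonic α-like gene HBZ. The adult α-globin genes HBA1 and HBA2 and the α-like genes HBM and HBQ1 fell.

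HBG1 (chr11:5248269-5249857, minus strand) stood at 39.3, 34.5, 26.3 and 28.4 CPM under DMSO and 103, 102, 77.9 and 76.3 CPM under SGC0946. Every SGC0946 library lay far above every DMSO library, with a log2 fold change of 1.49 (SE 0.14, adjusted p = 2e-08), or 2.8-fold. HBG2, its neighbour and near-identical copy, went from 84.9, 96, 71.5 and 69 CPM to 252, 236, 190 and 174 CPM, likewise without overlap (log2 1.4, SE 0.12, adjusted p = 4e-09). Reads may be split unevenly between these copies, and HBG2 took 71.5 ± 2.39% of their reads under DMSO and 70.3 ± 0.762% under SGC0946 (exact permutation p = 0.4). HBD rose from 77.3 ± 7.21 to 118 ± 12.3 CPM (log2 0.61, SE 0.1, adjusted p = 0.00015). HBZ was low in all libraries, at 2.36, 3.11, 2.73 and 1.88 CPM under DMSO and 6.85, 7.48, 8.85 and 6.92 CPM under SGC0946 (log2 1.56, SE 0.31, adjusted p = 0.0016). The embryonic gene HBE1 had 14 reads over the DMSO libraries and 36 over the SGC0946 libraries and was not tested.

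HBA2 stood at 3060, 3320, 2930 and 2770 CPM under DMSO and 1930, 2250, 1880 and 1830 CPM under SGC0946, 1.53-fold lower with no overlap (log2 −0.61, SE 0.07, adjusted p = 8.9e-07). HBA1, which encodes the same protein and shares nearly all of its sequence, fell from 1300 ± 74.1 to 824 ± 80.1 CPM (log2 −0.66, SE 0.07, adjusted p = 4.7e-07). HBM, which encodes μ-globin, fell from 477 ± 53 to 324 ± 38.2 CPM (log2 −0.56, SE 0.09, adjusted p = 8.5e-05). The θ-globin gene HBQ1 was lower, at −0.4 on the log2 scale (adjusted p = 0.01), a call lost without DMSO replicate 1 (0.06), SGC0946 replicate 3 (0.061) or SGC0946 replicate 4 (0.054). Adult β-globin HBB, by far the most abundant, ranged from 12500 to 16800 CPM under DMSO and 11400 to 13500 CPM under SGC0946, overlapped between the groups and did not pass the test (log2 −0.19, SE 0.08, adjusted p = 0.16).

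As shares, HBG1 and HBG2 together made up 0.788 ± 0.04% of β-like globin reads under DMSO and 2.35 ± 0.2% under SGC0946 (SD, n = 4, exact permutation p = 0.0286). The lowest SGC0946 share was 2.11% and the highest DMSO share 0.848%. The α-like genes took 26.4 ± 1.63% of all globin reads under DMSO and 20.7 ± 1.38% under SGC0946 (exact permutation p = 0.0286).

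Other parts of the red cell programme changed in few genes. The counts of this and later lists stand beside 5.06% higher and 3.1% lower over all genes tested. Of 11 haem synthesis genes 1 was higher and 1 lower (median log2 0.01, against −0.00573 over all genes tested). ALAS2, the first enzyme of haem synthesis in erythroid cells, went from 312, 428, 302 and 276 CPM to 485, 474, 401 and 394 CPM. The highest DMSO value lay inside the SGC0946 range, and the log2 fold change of 0.41 (SE 0.1, adjusted p = 0.012) lost its call without DMSO replicate 3 (0.055), SGC0946 replicate 1 (0.071) or SGC0946 replicate 2 (0.06). UROS, a later enzyme of the pathway, fell from 574 ± 42.5 to 463 ± 30.3 CPM (log2 −0.31, adjusted p = 0.0068), and missed the threshold without SGC0946 replicate 4 (0.05).

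Of 12 iron genes 1 was higher and 1 lower. SLC40A1, the iron exporter ferroportin, rose from 98.6 to 129 CPM under DMSO to 139 to 160 CPM under SGC0946, with no overlap (log2 0.42, SE 0.09, adjusted p = 0.0037). The transferrin receptor TFRC was lower, at −0.21 (adjusted p = 0.034), a call lost without DMSO replicate 1, 3 or 4 or any SGC0946 replicate (adjusted p 0.054 to 0.12). The ferritin chains FTL and FTH1 differed by −0.03 and 0.06 (adjusted p = 0.82 and 0.66).

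Among 21 red cell membrane and blood group genes 1 rose and 3 fell, with a median log2 fold change of −0.2. RHCE, a Rh blood group gene whose reads can be shared with its close copy RHD, rose from 8.86 ± 2.22 to 18.8 ± 2.09 CPM (log2 1.1, SE 0.21, adjusted p = 0.00077). TMOD1, which caps actin filaments in the membrane skeleton, fell from 62.7 ± 9.1 to 43.4 ± 6.44 CPM (log2 −0.53, adjusted p = 0.0099), and missed the threshold without SGC0946 replicate 4 (0.062). The scavenger receptor CD36 was lower, at −0.24 (adjusted p = 0.03), lost without DMSO replicate 4 or any SGC0946 replicate (adjusted p 0.06 to 0.12). Of 14 late erythroid genes 2 were lower. Peroxiredoxin PRDX2, an abundant red cell antioxidant, fell from 602 ± 108 to 434 ± 52.6 CPM (log2 −0.47, SE 0.1, adjusted p = 0.0033), with overlap between the groups, and HEMGN, a nuclear protein of erythroid cells, was at −0.34 (adjusted p = 0.032), lost without DMSO replicate 2 or 4 or any SGC0946 replicate (adjusted p 0.051 to 0.14). The carbonic anhydrase genes CA1 and CA2 and the α-globin chaperone AHSP differed by −0.08, 0.04 and −0.16 and did not pass the test (adjusted p 0.33 to 0.83).

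GATA2 fell, and the erythroid master regulators did not pass the test. GATA2 (chr3:128479427-128493201, minus strand), a factor of stem cells and early progenitors that GATA1 displaces as red cells mature, stood at 201, 249, 234 and 192 CPM under DMSO and 105, 94.8, 92.9 and 101 CPM under SGC0946. All SGC0946 libraries lay far below all DMSO libraries, 2.23-fold lower (log2 −1.16, SE 0.09, adjusted p = 1.5e-09). GATA1 differed by 0.11 (SE 0.08, adjusted p = 0.48), KLF1 by −0.07 (SE 0.1, adjusted p = 0.76) and TAL1 by 0.08 (SE 0.14, adjusted p = 0.81). Of 19 erythroid transcription factors 0 were higher and 4 lower (median −0.07).

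NFIA, a nuclear factor that favours the erythroid fate, went from 67.6, 63.2, 69.4 and 69.9 CPM to 47.7, 54.9, 47.5 and 47.6 CPM (log2 −0.45, SE 0.1, adjusted p = 0.0067). IKZF1, the zinc finger factor Ikaros, was lower, at −0.63 (adjusted p = 0.015), lost without DMSO replicate 1 or 4 or SGC0946 replicate 3 or 4 (adjusted p 0.053 to 0.083). GFI1B, a repressor needed for erythroid and platelet development, was at −0.26 (adjusted p = 0.023), lost without DMSO replicate 3 or SGC0946 replicate 1, 3 or 4 (adjusted p 0.065 to 0.12). LMO2, a bridging protein of the GATA1 and TAL1 complex, was at −0.26 (adjusted p = 0.043), lost without DMSO replicate 1 or 2 or any SGC0946 replicate (adjusted p 0.076 to 0.12). NFIA alone of the 4 kept its call whichever library was left out.

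Repressors of γ-globin overlapped between the groups at 168 h. ZBTB7A stood at 11.8, 8.62, 15.2 and 8.67 CPM under DMSO and 8.95, 9.14, 14.6 and 8.71 CPM under SGC0946 (log2 −0.09, SE 0.24, adjusted p = 0.88). BCL11A stood at 15.9, 21.2, 14.9 and 17.3 CPM under DMSO and 8.4, 15.8, 9.85 and 12.5 CPM under SGC0946, with a log2 fold change of −0.58 (SE 0.21, adjusted p = 0.097) that passed without SGC0946 replicate 2 (0.038). In the second HuDEP-2 experiment BCL11A was called lower by edgeR, from 12.7 to 8.13 CPM (log2 −0.64, SE 0.16, adjusted p = 0.034). NFIX and SOX6 were at −0.52 and 0.35 there and were not called. At 168 h NFIX differed by −0.39 (SE 0.27, adjusted p = 0.46). SOX6, at 1.34 ± 0.975 CPM under DMSO and 1.87 ± 0.585 CPM under SGC0946, had too few reads for a difference of this size to be detectable (log2 0.5, SE 0.62, adjusted p = 0.73).

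Of 18 stem and progenitor genes 9 were tested, with 1 higher and 1 lower, the lower being GATA2. CRHBP, which encodes a binding protein of corticotropin-releasing hormone and marks primitive progenitors, rose from 2.2 ± 1.26 to 9.91 ± 2.91 CPM (log2 2.12, SE 0.36, adjusted p = 0.0003). ITGA4, which encodes the progenitor surface marker CD49d, stood at 150 ± 15.3 CPM under DMSO and 138 ± 17.5 CPM under SGC0946 (log2 −0.12, SE 0.1, adjusted p = 0.55). The growth regulator MYC stood at 665 ± 43.8 CPM under DMSO and 616 ± 22.3 CPM under SGC0946 (adjusted p = 0.37).

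Some genes of other blood lineages rose at low levels. Of 18 granulocyte and monocyte genes 7 were tested, 4 of them not passing the filter on the DMSO libraries alone, and 3 were higher. These 3, CD33, CEBPE and CEBPA, were tested because of their SGC0946 levels, so their direction was favoured by the filter. CD33, a receptor of myeloid cells, went from 0.786, 0.359, 0.481 and 0.722 CPM to 3.65, 1.66, 6.11 and 3.58 CPM (log2 2.67, SE 0.58, adjusted p = 0.0034). CEBPE, a factor of late granulocytes, went from 0.846 ± 0.493 to 4.67 ± 1.82 CPM (log2 2.5, adjusted p = 0.0023). CEBPA, a factor needed for granulocytes, went from 3.34, 0, 1.44 and 0.433 CPM to 4.64, 5.61, 6.48 and 7.28 CPM (log2 2.33, adjusted p = 0.01), with the call lost without SGC0946 replicate 4 (0.052) and an adjusted p of 0.14 by DESeq2. None of the 8 fixed granulocyte and monocyte markers was called, and they summed to 4.33 to 9.7 CPM under DMSO and 6.21 to 15.3 CPM under SGC0946.

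The mast cell, basophil and eosinophil list had 5 genes tested and 2 higher, of which CPA3 did not pass the filter on the DMSO libraries alone. CPA3, the mast cell carboxypeptidase, went from 1.18, 0.839, 0.641 and 0.578 CPM to 10.9, 6.75, 12.5 and 6.8 CPM (log2 3.51, SE 0.39, adjusted p = 6.7e-07). PRG2, the major basic protein of eosinophil granules, rose without overlap from 125 to 137 CPM under DMSO to 236 to 275 CPM under SGC0946 (log2 1.02, SE 0.08, adjusted p = 1.2e-09). Tryptases TPSAB1 and TPSB2, which lie with CPA3 in the same granules, differed by −0.03 and −0.19 (adjusted p = 0.88 and 0.096), TPSB2 passing without DMSO replicate 2 (0.049), and they are close copies whose reads can be split. Of 12 lymphoid genes CD3D was the one tested, and it went from 0.59, 0, 0 and 0 CPM to 2.1, 1.97, 1.87 and 2.03 CPM (log2 3.92, SE 0.9, adjusted p = 0.0059), while CD3E was at 0 in all libraries. CD3D likewise passed the filter through its SGC0946 levels. RAB27B, a GTPase of granule release, was the called gene of 3 tested platelet genes (log2 1.32, adjusted p = 0.05), lost without DMSO replicate 1 or 3 or any SGC0946 replicate (adjusted p 0.096 to 0.14).

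The target itself and most chromatin regulators were not called. DOT1L (chr19:2163933-2232578, plus strand) stood at 13.2, 17, 19.9 and 18.3 CPM under DMSO and 13.3, 12.5, 24.3 and 16.5 CPM under SGC0946, overlapping (log2 −0.05, SE 0.21, adjusted p = 0.93). An inhibitor of the enzyme need not change its RNA, so these levels do not check the treatment. Of 15 DOT1L and MLL partner genes 2 were lower. MLLT3, which encodes the DOT1L partner AF9, went from 104, 134, 120 and 118 CPM to 73.9, 80.6, 79.3 and 96.2 CPM without overlap (log2 −0.53, SE 0.1, adjusted p = 0.00089). MLLT10, which encodes the partner AF10, was at −0.47 (adjusted p = 0.024), lost without DMSO replicate 1 or SGC0946 replicate 1, 2 or 4 (adjusted p 0.059 to 0.11).

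Of the 10 PRC1.1 subunit genes 6 were tested and 0 called by edgeR, where 8.16% of all genes were. A list this short may hold 0 at that share. The log2 fold changes ran from −0.36 for the deubiquitinase USP7 (adjusted p = 0.2) to 0.25 for the scaffold BCOR (adjusted p = 0.64). KDM2B, which binds unmethylated CG pairs, differed by −0.17 (SE 0.17, adjusted p = 0.65), RNF2, the ubiquitin ligase, by −0.17 (SE 0.14, adjusted p = 0.54), and YAF2 by −0.23 (adjusted p = 0.48). USP7 passed in the lower direction without DMSO replicate 2 (0.018), and so did SKP1 without DMSO replicate 2 (0.038). Of 10 other PRC1 genes 0 were called by edgeR, PCGF5 passing without SGC0946 replicate 3 (0.027). Of 10 PRC2 genes 1 was called, the methyltransferase EZH2, at −0.32 (adjusted p = 0.037), lost without DMSO replicate 1 or 3 or SGC0946 replicate 1, 3 or 4 (adjusted p 0.059 to 0.17).

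Of 39 HOX genes 4 had enough reads, and HOXB2 was lower, at −0.39 (adjusted p = 0.05), lost without DMSO replicate 3 or 4 or any SGC0946 replicate (adjusted p 0.097 to 0.17). Of 13 tested MLL fusion target genes of leukaemia 0 were called by edgeR, where 8.16% of all genes were. STAU2, SSBP2 and CD2AP, 3 of its most expressed members, differed by −0.12, −0.11 and −0.11 (adjusted p 0.75 to 0.77), and SOCS2 by −0.12 (adjusted p = 0.46).

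Some genes acting at the entry into S phase were called, and genes of the proliferation list were not. Of 19 cyclin, CDK and CDK inhibitor genes 2 were higher and 5 lower, where 5.06% and 3.1% of all genes were. CDKN2C, which encodes the CDK4 and CDK6 inhibitor p18, fell from 43.6, 41.6, 41.2 and 41.9 CPM to 14, 19.2, 19.7 and 15.9 CPM (log2 −1.29, SE 0.14, adjusted p = 6.7e-07). The D-type cyclin genes CCND2 and CCND1 fell from 281 ± 17.6 to 215 ± 9.76 CPM (log2 −0.39, adjusted p = 0.001) and from 136 ± 16.5 to 101 ± 7.84 CPM (log2 −0.43, adjusted p = 0.0049). The cyclin E gene CCNE1 fell from 75.5 ± 6.84 to 55.9 ± 3.72 CPM (log2 −0.43, adjusted p = 0.0089). An inhibitor and 3 cyclins were thus lower together, each without overlap. Of 19 proliferation genes 0 were called by edgeR (median −0.08, 15 of 19 negative), among them BIRC5, RRM2 and TK1 at −0.08, −0.16 and −0.12 (adjusted p 0.25 to 0.59). With 8.16% of all genes called, 0 of 19 is too near that share to be read as a result about the list.

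CDKN1A, which encodes p21 and is a target of p53, stood at 0.786, 1.2, 0.16 and 1.01 CPM under DMSO and 6.52, 1.77, 2.0 and 3.58 CPM under SGC0946. The call (log2 2.08, SE 0.59, adjusted p = 0.029) was lost without DMSO replicate 1 or 3 or SGC0946 replicate 1 or 4 (adjusted p 0.053 to 0.19). CDKN1A was tested because of its SGC0946 levels, so its direction was favoured by the filter. Of 14 p53 target genes 3 were higher, where 5.06% of all genes were. They were CDKN1A, TP53I3 (log2 0.79, SE 0.12, adjusted p = 6.6e-05) and GDF15. GDF15, a secreted stress factor that late erythroblasts also make, rose from 14.5, 22.9, 12 and 9.53 CPM to 36.1, 41, 35.4 and 36.9 CPM (log2 1.33, SE 0.19, adjusted p = 3.7e-05). The viral oncogenes used to immortalise this line act on the p53 and RB pathways. CDK6 (log2 1.17, adjusted p = 0.045) lost its call without DMSO replicate 1 or 3 or SGC0946 replicate 1, 3 or 4 (adjusted p 0.086 to 0.2). CDKN2A (log2 −0.24, adjusted p = 0.036) lost it without DMSO replicate 1, 3 or 4 or SGC0946 replicate 1, 3 or 4 (adjusted p 0.06 to 0.16).

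Of 19 glycolysis and hypoxia genes 3 were higher and 3 lower. PKM, a pyruvate kinase of proliferating cells and muscle, rose from 92.8, 88.4, 104 and 95.5 CPM to 304, 265, 276 and 283 CPM, or 2.97-fold (log2 1.57, SE 0.08, adjusted p = 1.4e-12). ENO1, the enolase that makes its substrate, fell from 3130 ± 204 to 2360 ± 138 CPM (log2 −0.41, SE 0.06, adjusted p = 7.4e-05), and HK1, a hexokinase of red cells, from 441 ± 25.3 to 357 ± 23.3 CPM (log2 −0.3, adjusted p = 0.007). BNIP3, a mitophagy receptor, fell from 85.2 ± 5.22 to 54.5 ± 0.822 CPM (log2 −0.65, SE 0.1, adjusted p = 6e-05). SLC2A3, a glucose transporter, rose from 0.393, 1.44, 0.321 and 0.433 CPM to 3.65, 4.26, 5.11 and 5.37 CPM (log2 2.71, SE 0.52, adjusted p = 0.00092). NDRG1, a stress-induced gene, was higher (log2 2.06, adjusted p = 0.032), lost without DMSO replicate 2, 3 or 4 or SGC0946 replicate 1, 2 or 3 (adjusted p 0.059 to 0.12). SLC2A3 and NDRG1 were tested because of their SGC0946 levels, so their direction was favoured by the filter.

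Of 17 cholesterol genes 2 were higher. HMGCS1, an early enzyme of the pathway, rose from 67.4 ± 18 to 124 ± 3.13 CPM (log2 0.87, SE 0.13, adjusted p = 5.5e-05). SQLE, INSIG1 and IDI1 differed by −0.02, 0.19 and −0.06 (adjusted p 0.16 to 0.9). Of 15 amino acid response genes under ATF4 2 were higher. TRIB3, a pseudokinase induced by ATF4, rose from 3.71 ± 0.609 to 12.8 ± 2.49 CPM (log2 1.77, SE 0.25, adjusted p = 2.7e-05), and DDIT4, an inhibitor of mTORC1, from 29.9 ± 3.37 to 43.1 ± 2.57 CPM (log2 0.52, SE 0.13, adjusted p = 0.0091).

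Of 12 interferon-stimulated genes 4 were higher and 1 lower, where 5.06% and 3.1% of all genes were. IFITM2, a membrane protein that limits virus entry, rose from 52.2 ± 9.78 to 106 ± 11 CPM (log2 1.03, SE 0.12, adjusted p = 1.4e-06), IFI6 from 2.67 ± 1.21 to 7.92 ± 0.472 CPM (log2 1.58, adjusted p = 0.0033) and IFIT3 from 2.48 ± 1.3 to 6.99 ± 1.41 CPM (log2 1.54, adjusted p = 0.0077). IFITM3, a close relative of IFITM2 with which it can share reads, was higher (log2 0.74, adjusted p = 0.033), lost without DMSO replicate 1 or 2 or SGC0946 replicate 1, 2 or 3 (adjusted p 0.054 to 0.12). The ubiquitin-like gene ISG15 was lower (log2 −0.35, adjusted p = 0.03), lost without DMSO replicate 1, 3 or 4 or any SGC0946 replicate (adjusted p 0.053 to 0.11). Of 12 MHC class I genes B2M was the one tested, at −0.05 (adjusted p = 0.87).

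Of 16 cytokine signalling genes 2 were higher. DUSP6, a phosphatase that dampens ERK, rose from 13.7 ± 5.09 to 26.4 ± 3.68 CPM (log2 0.93, SE 0.21, adjusted p = 0.0056). SOCS1, an inhibitor of JAK kinases, stood at 14.3, 7.19, 6.25 and 6.21 CPM under DMSO and 18.3, 12.9, 15.7 and 13.8 CPM under SGC0946 (log2 0.86, adjusted p = 0.029). DMSO replicate 1 lay inside the SGC0946 range of SOCS1, and the call was lost without DMSO replicate 3 or 4 or SGC0946 replicate 1, 3 or 4 (adjusted p 0.053 to 0.12). CISH and PIM1, targets of erythropoietin signalling through STAT5, differed by 0.18 and −0.1 (adjusted p = 0.53 and 0.57).

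The 12 largest rises among called genes that averaged at least 10 CPM were led by ITLN1 and S100A16. ITLN1 (chr1:160876540-160885180, minus strand), which encodes the secreted lectin intelectin, went from 0, 0.479, 0.321 and 1.01 CPM to 24.1, 17.8, 25.8 and 14.6 CPM (log2 5.36, SE 0.38, adjusted p = 3.2e-10). S100A16 (chr1:153606886-153613145, minus strand), a calcium-binding protein, went from 2.75, 2.16, 0.641 and 1.73 CPM to 34.8, 39.6, 27.9 and 40.5 CPM (log2 4.29, SE 0.25, adjusted p = 1.9e-11). ITLN1 was close to the limit of detection under DMSO, with 13 reads over the group, whereas S100A16 was low but present, with 48. Both were present in every SGC0946 library. The neuropeptide gene NMU rose from 1.18 ± 1.46 to 19.6 ± 2.86 CPM (log2 3.86, SE 0.41, adjusted p = 2.9e-07), and BEX3, a small adaptor protein, from 2.58 ± 1.35 to 33.5 ± 4.9 CPM (log2 3.67, SE 0.25, adjusted p = 1.6e-10). ITLN1 and NMU passed the filter through their SGC0946 levels, which favoured their direction. PTGES, which makes prostaglandin E, rose from 3.02 ± 1.07 to 29.4 ± 4.04 CPM (log2 3.27, SE 0.23, adjusted p = 3.2e-10).

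The kinase gene PLK2 (3.17), the slow skeletal troponin gene TNNT1 (3.15), the protein C receptor gene PROCR (3.1), the steroid transport gene STAR (2.91), the transcription factor gene SNAI2 (2.82), BEX1 (2.81) and EMP2 (2.8) completed the 12 on the log2 scale, with adjusted p from 2.2e-11 to 7.5e-07. TNNI3, the cardiac troponin gene that neighbours TNNT1 on chromosome 19, rose from 39.2 ± 3.83 to 166 ± 8.11 CPM (log2 2.08, SE 0.1, adjusted p = 1.6e-13). For all of the 12 the groups did not overlap, which the rule that chose the 12 required.

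The 12 largest falls were smaller in size. IGF2BP2 (chr3:185643130-185825042, minus strand), an RNA-binding protein, went from 27.9, 20.8, 21.2 and 27.4 CPM to 7.62, 11.5, 8.35 and 9.19 CPM (log2 −1.4, SE 0.19, adjusted p = 1.2e-05). HMGA2, an architectural chromatin protein of foetal and growing cells, went from 14.9, 21, 19.1 and 13.4 CPM to 5.74, 8.62, 4.86 and 7.52 CPM (log2 −1.35, SE 0.23, adjusted p = 0.00021). FAM241A was at −1.34, REEP6, which shapes the endoplasmic reticulum, at −1.08, TAF4B, a TFIID subunit, at −0.97, NMT2, an N-myristoyltransferase, at −0.93, and OTULINL at −0.92 (adjusted p from 2e-08 to 0.0041). PDIA2, MTURN and NPR3 were at −0.91, −0.87 and −0.87, and with GATA2 and CDKN2C these make up the 12.

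By difference in level, the genes that gained most were TMSB10, UCA1, LGALS3, APOC1, GLUL and PLIN2. TMSB10, a thymosin that binds actin, rose from 633 ± 46.3 to 1190 ± 44.4 CPM (log2 0.91, SE 0.07, adjusted p = 5.1e-10). The long non-coding RNA UCA1 rose from 753 ± 70.9 to 1270 ± 90.7 CPM (log2 0.76) and the lectin gene LGALS3 from 978 ± 148 to 1440 ± 163 CPM (log2 0.55). APOC1, an apolipoprotein, rose from 136, 107, 118 and 134 CPM to 491, 442, 473 and 439 CPM (log2 1.9, SE 0.08, adjusted p = 8.4e-14). PLIN2, which coats lipid droplets, rose from 390 ± 19.1 to 676 ± 35.6 CPM (log2 0.79) and GLUL, glutamine synthetase, from 837 ± 122 to 1160 ± 56.3 CPM (log2 0.47). Those that lost most were HBA2, ENO1, NDUFS7, HBA1, CYC1 and LDHB. LDHB, lactate dehydrogenase B, fell from 2430 ± 94.9 to 1990 ± 68.4 CPM (log2 −0.28, adjusted p = 0.002). The respiratory chain genes were lower by little, NDUFS7 at −0.23 (adjusted p = 0.014), lost without DMSO replicate 1 (0.057), SGC0946 replicate 1 (0.07) or SGC0946 replicate 3 (0.08), and CYC1 at −0.2 (adjusted p = 0.028), lost without DMSO replicate 1 or 3 or any SGC0946 replicate (adjusted p 0.056 to 0.096).

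Some genes were read almost only under SGC0946. Of the raised genes 19 had 3 reads or fewer over the 4 DMSO libraries and 7 of these had 0, and 0 lowered genes had 3 or fewer over the SGC0946 libraries. The neurotensin gene NTS had 0 reads in every DMSO library and 1.33, 0.623, 2.49 and 4.06 CPM under SGC0946. Set against 3 reads over the group it was at least 18.9-fold higher, and it did not reach the filter in 2 of the 8 fits that left out 1 library. MYOC had 2 reads under DMSO and 176 under SGC0946, a ratio of rates of 69.2 (95% exact interval 18.9 to 575), and GNG11, a G protein subunit, had 3 and 136 reads (35.6, 11.9 to 175). CARD16 had 1 and 160 reads (126, 22.2 to 5000), the prostaglandin E receptor gene PTGER2 1 and 110 reads (86.4, 15.2 to 3440), the cytokine receptor gene IL6R 1 and 90 reads (70.7, 12.4 to 2820) and CD1D, which presents lipids, 1 and 81 reads (63.7, 11.1 to 2540). These genes were picked for a higher call with few DMSO reads, and they passed the filter through their SGC0946 levels. The choice therefore favoured large ratios, and the intervals do not allow for it. The intervals cover counting error only, and reads without molecular identifiers are not independent molecules.

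A second HuDEP-2 experiment offered an independent set of libraries. In it, the expansion experiment, 3 DMSO and 3 SGC0946 libraries of undifferentiated cells, labelled with 7 days + 72hrs of treatment, were compared within a table that also holds differentiated cells. By edgeR 306 genes (3.11% of 9848) were higher and 74 (0.751%) lower. Replicate numbers were taken to pair these libraries from the counts themselves, where deviations of same-numbered libraries correlated (r 0.36, 0.23 and 0.18). With the number as a block 962 (9.77%) were higher and 657 (6.67%) lower. Of the 511 genes raised at 168 h, 457 were tested there and 426 (93.2%) were higher, where 49.1% of all genes tested in both were. Of the same 457, 207 (45.3%) were called higher and 0 lower, and with the block 316 (69.1%) were called higher and 3 lower. Of the 313 lowered genes 310 were tested and 276 (89.0%) were lower, against 50.9% of all genes, with 29 (9.35%) called lower and 0 higher, and with the block 147 (47.4%) and 4. The median log2 fold change of the raised genes was 1.01 at 168 h and 0.7 in the second experiment, and that of the lowered genes −0.39 and −0.21. From the other side, 77.2% of the 268 raised genes of the second experiment that were tested at 168 h were called higher, and 39.2% of its 74 lowered genes were called lower.

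Single-gene values of the second experiment, here and in other paragraphs, are from the fit without the replicate block, and so are their differences in response. GATA2 was at −1.11 in the second experiment (adjusted p = 3.6e-05), CDKN2C at −1.36 (9.3e-06), IGF2BP2 at −1.68 (6.4e-05) and HMGA2 at −2.67 (0.032). The γ-globin genes HBG1 and HBG2 stood at 2.17 and 2.36 (adjusted p = 2.1e-06 and 2.1e-06), from 27.7 to 124 CPM and from 34.1 to 175 CPM. S100A16, BEX3, TNNT1, PTGES, NMU and ITLN1 were at 3.09, 5.06, 3.2, 3.93, 3.64 and 2.83. The α-globin genes HBA1 and HBA2 were at −0 and 0.11 (adjusted p = 1.0 and 0.91), and PRDX2 and TMOD1 at 0.18 and −0.08, and none of these 4 was called. How these 4 genes stood with the block is not given here. The difference in response between the experiments was −0.64 for HBA1 (SE 0.15, adjusted p = 0.11) and −0.71 for HBA2 (SE 0.19, adjusted p = 0.23). A difference was thus not shown for either in the fit that leaves the pairing out. DMSO levels of HBA2 also differed, at 9550 CPM there and 3020 CPM at 168 h, from tables that were scaled apart.

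Tested over 10391 genes, the difference in response between the HuDEP-2 experiments was called by edgeR for 4 genes (0.0385%), 3 responding more upwards at 168 h (0.0289%) and 1 less (0.00962%), with 527 at an unadjusted p under 0.05 and 25 called by DESeq2. CYTL1, a cytokine-like gene of progenitors, was at 1.96 at 168 h and 0.72 in the second experiment (difference 1.24, SE 0.22, adjusted p = 0.027). TINCR (difference 1.11, SE 0.19, adjusted p = 0.023) and CAVIN1, a coat protein of caveolae (difference 1.12, SE 0.21, adjusted p = 0.047), also responded more at 168 h. SERPINB6, a protease inhibitor, rose from 13.1 ± 2.46 to 53.1 ± 3.14 CPM at 168 h and from 0.271 to 8.42 CPM in the second experiment (difference −2.77, SE 0.48, adjusted p = 0.023). In the DMSO libraries of that experiment 3 reads were 0.274 to 0.368 CPM, so this difference on the log2 scale rests on a DMSO level near 0. All 4 calls were lost without DMSO replicate 3 or SGC0946 replicate 1, 3 or 4 of the 168 h experiment, and without DMSO replicate 2 or SGC0946 replicate 2 or 3 of the other, each leaving 0.

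**Figure D3:**
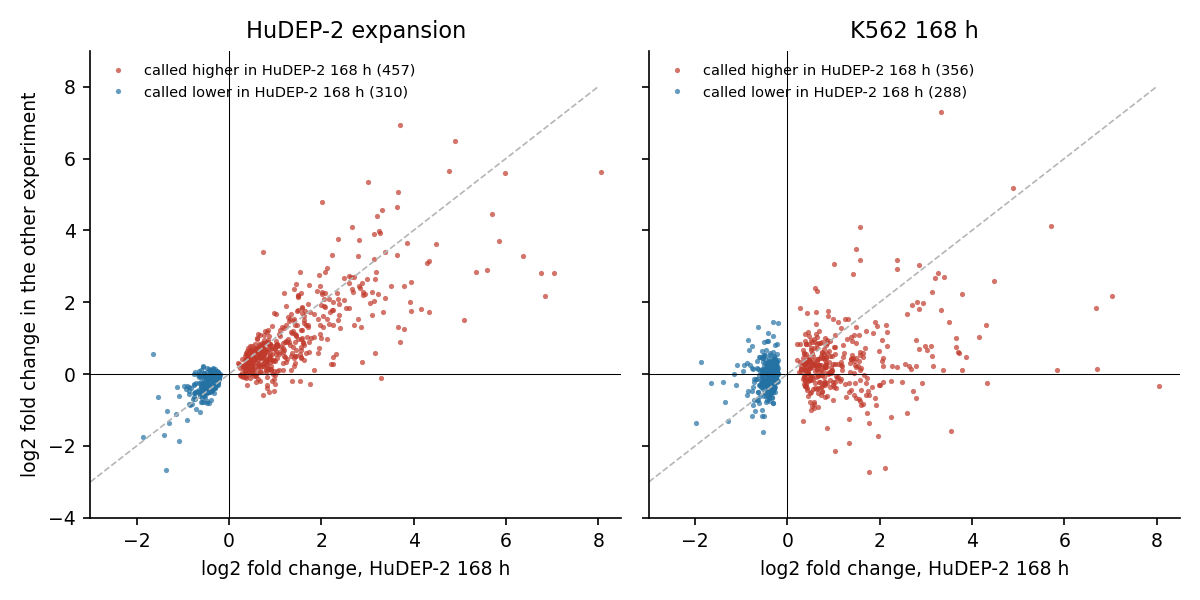
Log2 fold changes of the genes called in HuDEP-2 cells at 168 h (x) against those in the second HuDEP-2 experiment (left, HuDEP-2 expansion) and in K562 cells (right), with a dashed line at equal change and genes raised at 168 h in red and lowered in blue. In the second HuDEP-2 experiment 93.2% of the raised and 89.0% of the lowered genes kept their direction, and in K562 66.6% and 52.8%.

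K562, a chronic myeloid leukaemia line with erythroid features and no MLL fusion, was given the same dose for the same time in 4 DMSO and 4 SGC0946 libraries. More genes were called there, 3588 of 10276 (34.9%), 1822 higher (17.7%) and 1766 lower (17.2%). Of the genes raised in HuDEP-2 cells, 356 were tested in K562, 237 (66.6%, where 4449 of all 8896 genes tested in both were higher in K562) were higher, 139 (39.0%) called higher and 47 (13.2%) called lower. Of those lowered, 288 were tested, 152 (52.8%) were lower in K562, near the share over all genes (4447 of 8896), 77 (26.7%) called lower and 58 (20.1%) called higher. The difference in response was called for 2176 of 11520 genes (18.9%), 1106 responding more upwards in HuDEP-2 (9.6%) and 1070 less (9.29%). It was called for 43.8% of the 511 raised genes, 203 upwards and 21 the other way, and for 44.4% of the 313 lowered genes, 134 downwards and 5 the other way. These genes were chosen from 1 of the contrasts compared, so nothing is read from their share. Line and experiment cannot be told apart in this test. With scaling by library size alone the median difference moved from 0.0424 to 0.133.

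CDKN2C was lower in both lines, at −1.29 in HuDEP-2 and −1.31 in K562 (difference 0.03, SE 0.2, adjusted p = 0.99). GATA2 fell in HuDEP-2 cells, whereas in K562 it stood at 30.5 and 30.7 CPM (difference −1.17, SE 0.15, adjusted p = 1.2e-06). HBG1 and HBG2 were higher in both, at 0.44 and 0.53 in K562, where DMSO levels were 949 and 1140 CPM, and the rise was larger in HuDEP-2 (difference 1.06, SE 0.17, adjusted p = 3.2e-05 for HBG1, and 0.88, SE 0.17, adjusted p = 0.00039 for HBG2). HBA1 and HBA2 stood at 0.36 and 0.49 in K562 (adjusted p = 0.0012 and 0.00029) and fell in HuDEP-2 (difference −1.01, SE 0.11, adjusted p = 1.5e-07 for HBA1, and −1.1, SE 0.13, adjusted p = 3.6e-07 for HBA2).

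The ATF4 list went different ways in the lines. All 17 of its genes tested in K562 were called lower, against 17.2% of all genes there, whereas in HuDEP-2 cells 2 of 15 were higher and 0 lower, and the difference in response was called for 16 of 17. TRIB3 rose in HuDEP-2 and went from 705 to 107 CPM in K562 (difference 4.49, SE 0.19, adjusted p = 1.7e-15), and DDIT4 rose and went from 309 to 166 CPM (difference 1.43, SE 0.22, adjusted p = 2.5e-05). GDF15 and TSC22D3, the glucocorticoid-induced leucine zipper gene, rose in HuDEP-2, at 1.33 and 1.02, and fell in K562, at −1.92 and −2.13 (differences 3.25 and 3.18, adjusted p = 7.5e-11 and 7.3e-12). Of the cytokine signalling list 7 of 16 were lower in K562 and 0 of 16 in HuDEP-2, with CISH, SOCS2 and PIM1 at differences of 1.55, 1.54 and 1.07 (adjusted p = 1.1e-06, 3.2e-11 and 4.9e-08). The erythroid factors KLF1 and NFE2 stood at 0.97 and 1.04 in K562 (adjusted p = 6.3e-08 and 7.8e-10) and did not pass the test in HuDEP-2 (difference −1.03, SE 0.16, adjusted p = 2.2e-05 for KLF1, and −0.93, SE 0.1, adjusted p = 8.4e-08 for NFE2). TFRC, at −0.21 in HuDEP-2, went from 41.1 to 111 CPM in K562 (difference −1.64, SE 0.12, adjusted p = 5.5e-11).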

How the data were processed

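RNA was sequenced as 3′ RNA-seq. The study's methods describe 3′Pool-seq, whereas the labels name that or a Lexogen kit for all samples, and the strand setting is not given in the sources used here. According to the methods and labels, the authors demultiplexed with bcl2fastq, trimmed with bbmap, aligned to GRCh38 with STAR and deposited its raw gene counts without normalisation. Counts of 3′ reads do not scale with gene length. In the K562 table each line has an empty field before its last value, which was taken as SGC0946 replicate 4. Lines that name no gene held at most 0.000284% of reads and were left out. For each experiment genes at 2 CPM or more in at least 2 libraries were tested with edgeR 4.0.16 (R 4.3.3, TMM factors, quasi-likelihood F-test, Benjamini-Hochberg adjustment over all genes tested, threshold 0.05). Differences in response were tested as interaction terms on counts of both experiments. DESeq2 1.42.0, other scalings and filters, the replicate block and leaving out each library were alternatives. In the second HuDEP-2 experiment, fitted with the differentiated libraries of its table, deviations of same-numbered libraries correlated (r 0.36, 0.23 and 0.18), so numbers were taken to pair it. No 2 replicates agreed within sampling noise (chi-square per degree of freedom at least 5.01). On simulated counts of 9827 genes edgeR recovered 97% of changes of 1 and 59% of changes of 0.5 on the log2 scale in the 168 h comparison. Of its 167 calls there 11 were on unchanged genes. The changes were placed on genes with a mean of at least 10 CPM, so these shares do not hold for lower genes.

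Expected detected genes were computed from the counts by the hypergeometric formula, and shares were compared by two-sided exact permutation tests over libraries. Sequences before gene starts came from GRCh38, with the start of each gene's canonical transcript in GENCODE 44. Gene lists and members were chosen with earlier results of these data known. Named genes were the target and the genes the study names for this line, called or most expressed list members, the 12 largest rises and falls of separated genes at a mean of at least 10 CPM, up to 8 genes with 3 reads or fewer in a group, the 6 largest differences in CPM each way and up to 5 genes each way per difference in response. A few genes that this rule or the lists select are not reported here, and counts over lists include them.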

Additional observations from a re-analysis of the deposited data

Results flagged for a closer look

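In 25 of the 364 group values examined over 182 named genes, 1 library stood far from the other 3 of its group, by the gap to its nearest neighbour relative to the range of the group. Chance flags about 1 in 20 such groups, and 6 of the 25 fell on DMSO replicate 1. All values here are CPM. DMSO replicate 1 stood apart at 0.197 for CARD16, 0.59 for CD3D, 3760 for CYC1, 16.1 for FOXO3, 98.9 for REEP6 and 14.3 for SOCS1. DMSO replicate 2 stood apart at 0.12 for IL6R, 106 for ISG15 and 1.44 for SLC2A3. DMSO replicate 3 stood apart at 0.16 for CD1D, 0.16 for PTGER2 and 3.37 for ZFPM1. For CARD16, CD3D, IL6R, CD1D and PTGER2 the DMSO value flagged rests on 3 reads or fewer, with 0 in the other DMSO libraries. Such a group is always flagged, so the rate of 1 in 20 does not hold for these genes. SGC0946 replicate 1 stood apart at 14.2 for CRHBP, 322 for SKP1, 46.2 for STAT5A and 44.2 for TAL1. SGC0946 replicate 2 stood apart at 935 for DCTPP1, 19.5 for FOXO3, 54.9 for NFIA, 623 for PLIN2 and 48.4 for SERPINB6. SGC0946 replicate 3 stood apart at 7.61 for BCOR, 1.87 for CARD16 and 14.6 for ZBTB7A. SGC0946 replicate 4 stood apart at 151 for SOCS2.

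Responses differed between experiments by the test of the difference itself for these genes, given as the log2 fold change in HuDEP-2 at 168 h less that in the other experiment. Against the second HuDEP-2 experiment the differences were 1.12 for CAVIN1, 1.24 for CYTL1, −2.77 for SERPINB6 and 1.11 for TINCR. Against K562 they were positive for SERPINB6 (2.33), STAR (3.17), TNNI3 (1.87), TSC22D3 (3.18) and WARS1 (1.55), and negative for DCTPP1 (−1.15), FEZ1 (−2.52), GSTP1 (−1.39), SYNGR1 (−1.73) and TFRC (−1.64). The neuronal adaptor gene FEZ1 stood at 149 and 148 CPM in HuDEP-2 and went from 7.24 to 41.5 CPM in K562. The steroid transport gene STAR stood at 4.74 and 35.6 CPM in HuDEP-2 and at 809 and 679 CPM in K562. Line and experiment cannot be told apart in the K562 differences.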

How the results depend on the processing

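Main counts (824 called, 511 higher and 313 lower, of HuDEP-2 at 168 h) were 819 with DESeq2's size factors in edgeR, 789 with library size only, 962 by DESeq2 (576 and 386), 941 with no filter, 588 at a minimum of 10 CPM and 635 at the limits in the study's methods (519 and 116). Leaving out 1 library gave at most 1016 calls (without DMSO replicate 2), and every such total stayed within 1.5 times 824. Same-numbered libraries at 168 h did not deviate together (r −0.042, −0.0094, −0.012 and 9e-04), and the replicate block gave 682 calls, 450 and 232. Lower calls went past 1.5-fold of 313 with library size only (186), at the study's limits, and without SGC0946 replicate 1, 3 or 4. Of 182 named genes 0 reversed a call, 83 of the 108 called kept their call in every fit that left out 1 library and gave a value, and 10 of 74 not called were called in some. The block ended the call of 12 named genes (CD36, CDK6, CDKN1A, CDKN2A, CYC1, EZH2, HOXB2, IFITM3, LMO2, NDRG1, RAB27B and TFRC), and library size only that of 12 (CD36, CDKN2A, CYC1, EZH2, GFI1B, HEMGN, HOXB2, ISG15, LMO2, MLLT10, NDUFS7 and TFRC). HBB was called with no filter. The cause was not tested.

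For the second HuDEP-2 experiment the replicate block gave 1619 calls against 380, its lower calls were 115 by DESeq2, 117 with no filter and 45 with the 6 libraries alone against 74, and leaving out 1 library gave 249 to 395. K562 gave 3040 to 3691 calls without 1 library. The difference from K562 gave 1858 to 2266, and with library size only 64.8% of its calls were higher against 50.8%. The difference between the HuDEP-2 experiments, 4 calls, gave 25 by DESeq2 (13 higher and 12 lower), 34 with no filter (25 and 9), 30 with the replicate block (17 and 13), and 0 to 6 without 1 library. Depth limited low genes: 3 reads were 0.316 to 0.575 CPM at 168 h.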

Other observations

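Gene families by symbol, chosen after values had been seen and so given without a test over the family, showed where the called genes lay. Of 8 tested BEX and TCEAL genes, X-linked relatives, 5 were higher, where 5.06% of all genes were: BEX3 (3.67 on the log2 scale), TCEAL9 (3.65), BEX1 (2.81), TCEAL8 (0.46) and TCEAL4 (0.45). Of 3 β-thymosins 2 were higher, and of 5 actin and tropomyosin genes 3. The β-thymosin TMSB4X, which binds free actin, rose from 54.5 ± 5.75 to 165 ± 16.5 CPM (log2 1.59, adjusted p = 5.4e-11), beside TMSB10, and the tropomyosins TPM4 and TPM3 and cytoplasmic actin ACTG1 rose by 0.4, 0.25 and 0.3. Of 10 tubulin genes TUBA1A rose from 30.8 ± 3.84 to 101 ± 9.19 CPM (log2 1.71, adjusted p = 1.5e-10) and the centrosomal TUBG1 was lower, at −0.41. Of 9 annexins, membrane-binding proteins, 3 rose, ANXA2, ANXA4 and ANXA5, by 0.53, 0.5 and 0.5.

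The S100 family split, with S100A16, S100A13 (2.86) and S100A10 (0.58) higher and S100A6 (−0.39) and S100A4 (−0.32) lower of 7 tested. S100A13 and TCEAL9 passed the filter through their SGC0946 levels, which favoured their direction. Of 166 solute carrier genes 16 were higher (9.64%) and 1 lower. Of 299 ZNF genes 5 were higher (1.67%) and 1 lower (0.334%). The share of reads counted as mitochondrial was 2.03 to 2.22% under DMSO and 2.32 to 2.48% under SGC0946. Nuclear genes of 2 sets of mitochondrial proteins lay slightly below 0. Of complex I subunits 29 of 34 were negative (median −0.15, 4 lower), and of mitochondrial ribosomal proteins 53 of 75 (median −0.05, 6 lower). MRPL16 went from 883 ± 101 to 636 ± 53.3 CPM (log2 −0.47, adjusted p = 0.00022). With library size alone as the scale all values shift upwards, the median of all genes going from −0.00573 to 0.0467, so the sign of medians this small depends on the scaling. By edgeR 0 of 35 histone genes, 1 of 75 cytosolic ribosomal protein genes (RPS2) and 0 of 16 aminoacyl-tRNA synthetase genes were called, where 8.16% of all genes were.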
